A study of Mus musculus with 6 samples.

Results

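The genes described here encode ion channels and their close subunits. They are the 52 of 11789 listed genes chosen by the start of their symbols, such as Kcn, Cacn, Clcn, Clic, P2rx, Trpc, Trpm, Trpv, Orai, Itpr and a digit, Lrrc8, or Ano and a digit. The symbol alone chose them, so proteins that are not pores came along, among them the TRPC4-associated protein Trpc4ap, the regulatory subunits Kcnab2, Kcne3, Kcnip2, Cacnb1 and Cacnb3, and the CLIC proteins. The libraries were RNA-seq of lung alveolar macrophages, the resident phagocytes of the air spaces, from C57BL/6 mice. There were 3 libraries from mice labelled A20 conditional knockout, and 3 from mice labelled wild type. Values of the knockout libraries are given in the order A20-1, A20-3, A20-4, and those of the wild-type libraries in the order BLM1, BLM2, BLM3. Both groups had received the exposure that the series title abbreviates as BLM. A20, the product of Tnfaip3, is a ubiquitin-editing inhibitor of NF-kB signalling. The promoter that drives the deletion, the cells in which it acts, the deleted exons, the dose, the ages and any pooling of animals do not appear in the labels. P-values therefore measure the spread between these libraries, part of which may be technical.

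Ion channels let ions cross a membrane down their gradient. Potassium channels set the resting voltage of a macrophage and so the driving force for calcium entry. The voltage-gated channel Kv1.3, encoded by Kcna3, and the inward rectifier Kir2.1, encoded by Kcnj2, are the best known potassium conductances of cultured macrophages. Calcium enters through ORAI pores once IP3 receptors have emptied the endoplasmic reticulum, and P2X receptors open to extracellular ATP. Potassium efflux is a known trigger of the NLRP3 inflammasome.

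Values are FPKM, fragment counts scaled by transcript length and by the mapped fragments of the library, so levels can be compared between genes. The read depth behind them is unknown. Tests used limma on log2(FPKM + 1), with p-values adjusted over the 10696 genes whose mean FPKM was at least 1, and a gene past an adjusted p of 0.05 is said to have risen or fallen. Of the 52 ion channel genes, 47 reached that mean and 5 did not. Those 5 are Ano1, Clic3, Kcnd1, Kcnip2 and Kcnj10.

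Library BLM3 stood apart. Its Pearson correlations across genes with the other 5 libraries were 0.886 to 0.925, against 0.953 to 0.982 among those 5. Its summed FPKM of 7 listed neutrophil genes was 2767, against 87.2 to 114.8 in the knockout libraries and 132.5 and 135 in BLM2 and BLM1. All 14 listed markers of alveolar macrophages were present in every library, but not at one level. Of the 14, 13 had a positive difference, with a median of 0.72 on the log2 scale. Of all 10696 genes tested, 1704 had higher values in every knockout library, and of these 14 markers 7 did. Among the 7 was Cidec, with means of 36.9 FPKM in knockout and 6.99 FPKM in wild type. Chil3 overlapped, at 3269 to 5471 FPKM in knockout and 2998 to 4765 FPKM in wild type. At the adjusted threshold limma called 0 of the 14 higher and 1, Marco, lower, and without BLM3 4 were called higher. The median log2 difference of the 14 was smaller without BLM3, at 0.30. Itgax, Atp6v0d2 and Chil3 then also had negative differences (-0.30, -0.21 and -0.0056). The monocyte and recruited macrophage list summed to 566 to 663 FPKM in knockout and 1753 to 2164 FPKM in wild type, mostly Apoe and C1qa. Of its 11 tested gene IDs, 4 were called lower and 0 higher, and 10 differences were negative. Cx3cr1 had a positive difference (0.56), and Cd14 had one without BLM3 (0.34). Ly6c2 had 8.21, 4.92 and 41.3 FPKM in the wild-type libraries, against 3.03 to 4.93 FPKM in knockout. In bulk RNA, fewer cells of a type and less RNA per cell cannot be told apart. The part of these cell markers in the differences below was not tested. Tnfaip3 itself had 8.44, 12.9 and 6.80 FPKM in the knockout libraries, against 4.47, 2.18 and 21.6 FPKM in the wild-type libraries, so its level does not check the labels (exact two-sided permutation p = 1, where 0.1 is the smallest this design allows). Its log2 difference was 0.46 (limma adjusted p = 0.734). Without BLM3 it was 1.27 (limma adjusted p = 0.0797), with every knockout library above BLM1 and BLM2. Each direction is thus one between libraries as labelled.

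Kcna3 rose in the knockout libraries, 1 member fell, and the other 45 tested ion channel genes did not pass the threshold. The 2 calls are 4.26% of the 47 members tested, beside 1.10% of all genes tested. Of all genes tested, 0.252% were called higher in knockout and 0.851% lower. At an unadjusted limma p under 0.05 stood 14 members, 6 higher and 8 lower in knockout, and 20.3% of all genes tested. The values of the groups did not overlap for 16 members (34.04%), 7 higher and 9 lower in knockout, close to the 29.0% of all genes tested. The median log2 difference of the members was 0.08, with 26 positive and 21 negative, and that of all genes tested was 0.02. Without BLM3 these medians were -0.02 and 0.03, and with array weights -0.05 and 0.01, so the sign for the members was not stable. The absolute log2 difference had a median of 0.34 for the members and 0.19 over all genes tested, a contrast that was not tested.

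**Figure D1:**
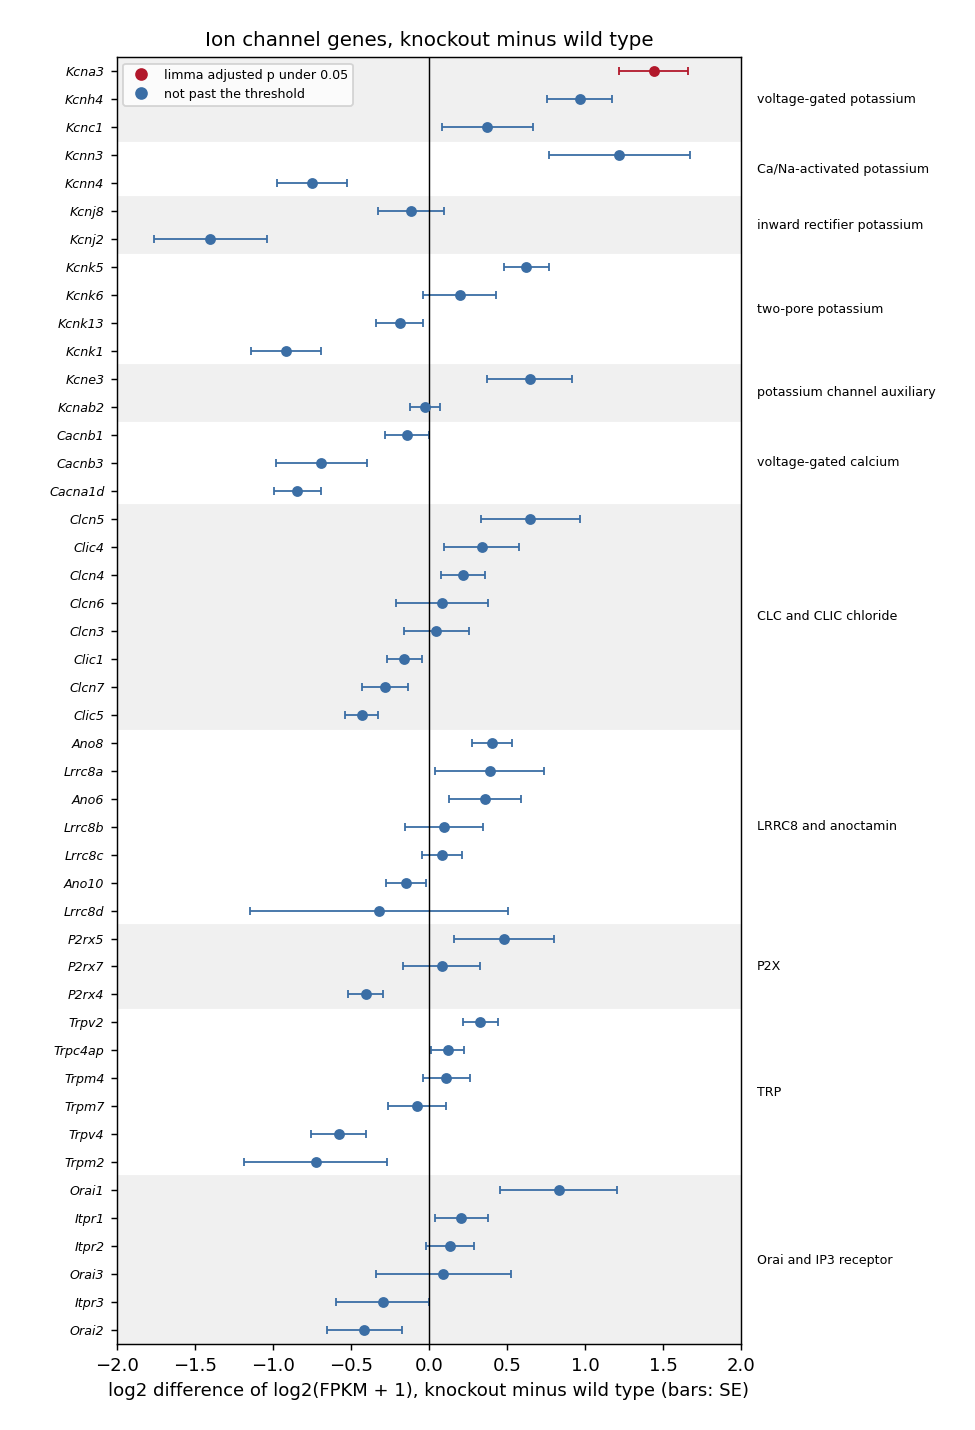
Log2 difference of log2(FPKM + 1), knockout minus wild type, for 46 ion channel genes tested, grouped by role (bars are SE, n = 3 libraries each). Kcna3 at 1.44 passed the threshold, and members on both sides of 0 occur in most groups.

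The promoter stretches of Kcna3 and Kcnj2 are shown. At the pseudocount of 1, these 2 genes had the most positive and the most negative log2 difference of the members tested. The ratio of mean FPKM ranked them otherwise. Knockout over wild type, it was 3.31 for the low gene Kcnh4 and 2.76 for Kcna3. Wild type over knockout, it was 4.32 for the low gene Kcnk1 and 3.23 for Kcnj2. Each stretch holds the 250 bases before the RefSeq start, on the plus strand of GRCm38.p6. The positions are chr3:107035912-107036161 for Kcna3 and chr11:111065914-111066163 for Kcnj2. Capitals mark matches to the NF-kB letters (GGGAA, any 3 bases, CC) or to GAGGAA, the core letters of a site of the macrophage factor PU.1, on either strand.
Kcna3: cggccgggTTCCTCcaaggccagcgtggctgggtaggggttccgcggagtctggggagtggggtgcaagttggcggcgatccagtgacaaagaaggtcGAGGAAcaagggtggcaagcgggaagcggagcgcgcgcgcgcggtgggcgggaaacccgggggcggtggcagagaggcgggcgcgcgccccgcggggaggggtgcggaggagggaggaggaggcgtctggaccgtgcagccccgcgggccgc
Kcnj2: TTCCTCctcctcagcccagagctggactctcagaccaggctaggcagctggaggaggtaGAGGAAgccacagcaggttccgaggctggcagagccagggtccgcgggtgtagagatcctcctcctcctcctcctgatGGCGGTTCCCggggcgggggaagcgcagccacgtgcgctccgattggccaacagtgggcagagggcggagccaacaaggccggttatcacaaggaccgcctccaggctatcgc
The NF-kB letters occurred 1 time in the Kcnj2 window and 0 times in that of Kcna3, and in 4.94% of 32851 RefSeq promoter windows of the same length. The PU.1 letters occurred 2 times in each, and in 23.3% of all windows. The marked matches did not overlap each other. Neither window held TGANTCA, the site of AP-1, or TATAAA, the TATA box, which occurred in 6.75% and 12.4% of all windows. The Kcna3 window had 74.4% G and C and 31 CpG pairs, and that of Kcnj2 65.6% and 14, where the median over all windows was 52.4% and 6. Of the 52 genes, 45 had an entry in the RefSeq table.

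Among the voltage-gated potassium channels, Kcna3 (ENSMUSG00000047959.4, GRCm38 chromosome 3, 107036169 to 107038070, plus strand) is annotated in GENCODE M21 with 1 transcript of 1 exon. Its FPKM was 60.0, 44.7 and 49.1 in the knockout libraries, against 18.2, 24.2 and 13.5 in the wild-type libraries. Every knockout library lay above every wild-type library, and BLM3 was the lowest of the 6. The means were 51.3 ± 7.87 FPKM in knockout and 18.6 ± 5.36 FPKM in wild type (SD, n = 3 each), a ratio of 2.76. The log2 difference was 1.44 ± 0.22 (SE, limma adjusted p = 0.0449). The call ended without A20-1, A20-3, A20-4 or BLM1 (adjusted p 0.126, 0.151, 0.186 and 0.144) and under quantile normalization (0.0541), and held without BLM2 (0.0315) or BLM3 (0.0226), while the log2 difference stayed between 1.24 and 1.64.

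Kv1.3 is also the well-known potassium channel of T cells. Of 10 T cell genes listed, the 8 in the table summed to 212 to 218 FPKM in knockout, against 215, 165.5 and 322 FPKM in the wild-type libraries. Of these 8, 0 were called by limma in either direction, with 1 at an unadjusted p under 0.05 and a median log2 difference of -0.13. Without BLM3 that median was 0.22, so its sign rested on that library. None of the 8 was at 0 in any library. The signalling chain Cd3e had 14.4, 14.3 and 13.9 FPKM in the knockout libraries, against 15.4, 8.36 and 26.7 FPKM in the wild-type libraries. The part of T cells in the Kcna3 difference was not tested. The gene at an unadjusted p under 0.05 was the adhesion receptor gene Cd2, with 92.3, 82.97 and 101 FPKM in the knockout libraries, against 68.0, 76.5 and 52.0 FPKM in the wild-type libraries. The 6 B cell genes summed to 32.3 to 46.9 FPKM in knockout and 37.5 to 118 FPKM in wild type, and 0 were called by limma (0 at an unadjusted p under 0.05). Of 8 NK and cytotoxic genes tested, 0 were called, and 7 had positive differences and 1 a negative one. Their median log2 difference was 0.23, or 0.51 without BLM3, where 1 was called higher. Of the alveolar macrophage markers, 7 of 14 had higher values in every knockout library, as Kcna3 had (6 higher and 1 lower at an unadjusted limma p under 0.05). With 1 marker lower in every knockout library, 57.1% of the 14 did not overlap, beside 29.0% of all genes tested. The lung epithelial list was mixed, with 3 genes higher and 2 lower in knockout at an unadjusted p under 0.05 and 0 of 9 called. Its sum was 309 to 398 FPKM in knockout and 78.7 to 218 FPKM in wild type, and without BLM3 its keratin genes Krt18 and Krt8 were called lower (limma adjusted p = 0.0114 and 0.0268). The dendritic cell list was mixed too, with 2 genes higher and 2 lower at an unadjusted p under 0.05 and 0 of 8 called. Its sum of 1383 to 1725 FPKM in knockout and 932 to 1239 FPKM in wild type was mostly H2-Ab1 and H2-Aa, the other 6 genes had negative differences, and Xcr1, Flt3 and Clec9a were called lower without BLM3 (adjusted p = 0.0236, 0.0276 and 0.0453). The part of these cell types in the Kcna3 difference was not tested.

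Kcnh4 encodes a voltage-gated channel of the ELK subfamily. It had 1.96, 1.91 and 3.20 FPKM in the knockout libraries, against 0.967, 0.790 and 0.374 FPKM in the wild-type libraries. These values did not overlap between the groups, and the log2 difference was 0.97 ± 0.21 (SE, limma adjusted p = 0.0872, not past the threshold). Kcnh4 reached the minimum mean of 1 FPKM only through knockout, at 2.35 FPKM against 0.710 FPKM in wild type. Kcnc1, which encodes the fast-deactivating channel Kv3.1, had 1.59, 1.04 and 1.70 FPKM in the knockout libraries, against 0.526, 0.461 and 1.93 FPKM in the wild-type libraries. BLM3 was here the highest of the 6 (adjusted p = 0.498). Kcnd1, which encodes Kv4.1, stayed at or below 0.840 FPKM in every library and was not tested.

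**Figure D2:**
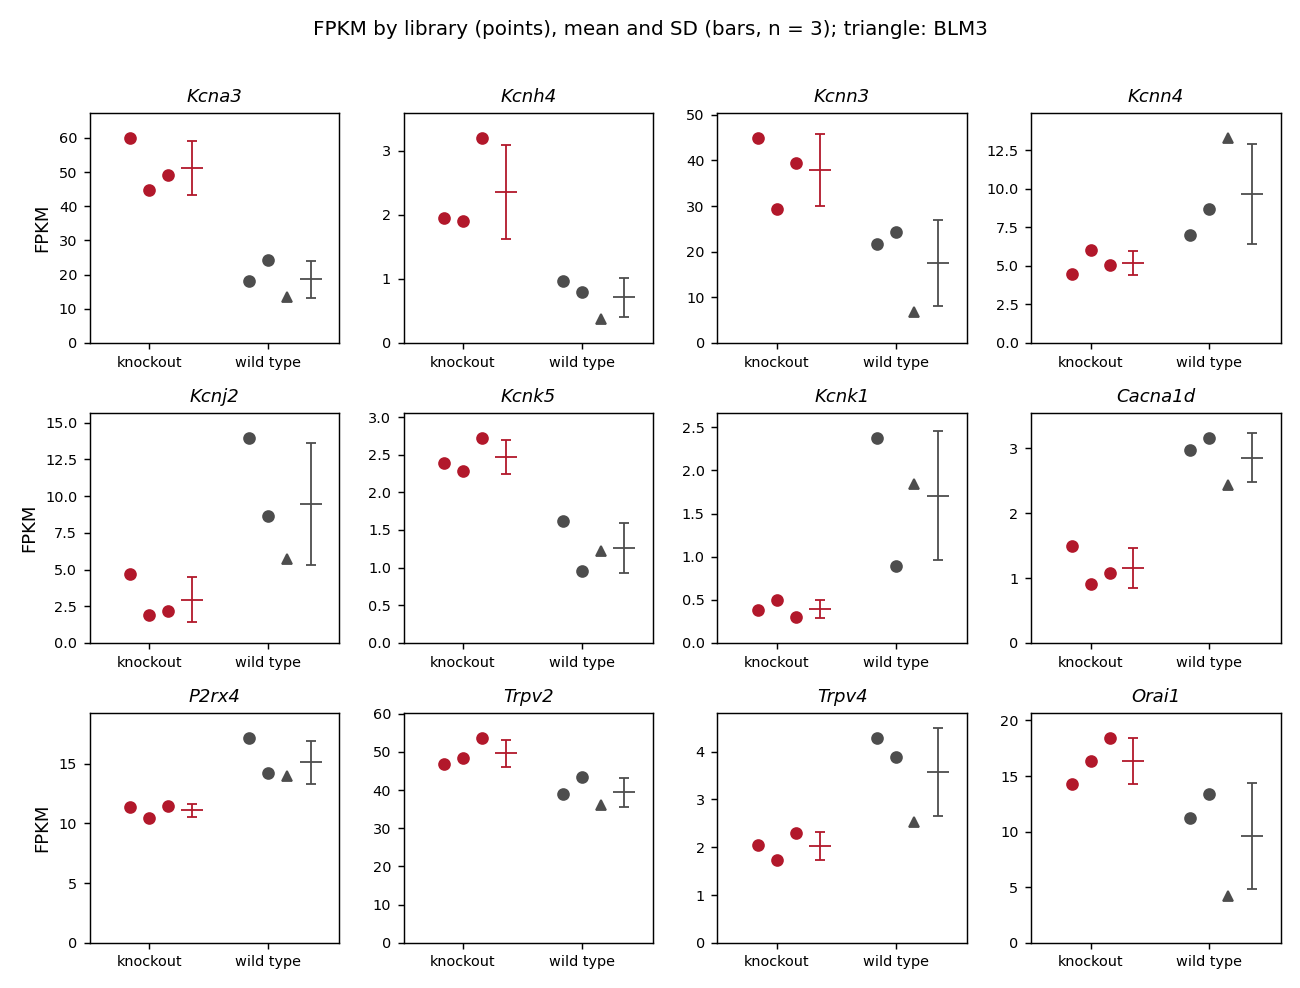
FPKM of 12 ion channel genes in each library (points), with the mean and SD of each group (bars, n = 3), knockout left and wild type right, BLM3 as a triangle. These 12 were taken from the 16 tested members whose groups do not overlap. Kcnn3 and Orai1 were lowest and Kcnn4 was highest in BLM3.

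The calcium-activated potassium channel genes had differences of opposite sign, and neither passed the threshold. Kcnn3 encodes the small-conductance channel SK3, which opens on intracellular calcium through bound calmodulin. Its FPKM was 44.9, 29.5 and 39.3 in the knockout libraries, against 21.7, 24.3 and 6.78 in the wild-type libraries. No wild-type value reached the knockout range, and BLM3 lay 1.62 log2 units below the mean of BLM1 and BLM2. The log2 difference was 1.22 ± 0.45 (SE, limma adjusted p = 0.203), or 0.68 without BLM3 (adjusted p = 0.0943). Kcnn4 encodes KCa3.1, the intermediate-conductance channel of macrophages and lymphocytes. It had 4.50, 6.04 and 5.07 FPKM in the knockout libraries, against 7.01, 8.71 and 13.3 FPKM in the wild-type libraries. Its groups did not overlap either, with BLM3 the highest (log2 difference -0.75 ± 0.23, SE, adjusted p = 0.147).

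Kcnj2, which encodes the inward rectifier Kir2.1, had 4.69, 1.93 and 2.16 FPKM in the knockout libraries, against 14.0, 8.63 and 5.74 FPKM in the wild-type libraries. Both groups were wide without overlapping, and the mean in wild type was 3.23 times that in knockout. Its log2 difference was -1.40 ± 0.36 (SE, limma adjusted p = 0.116), and leaving out BLM3 brought it past the threshold (-1.68, adjusted p = 0.0481). The ratio of Kcna3 to Kcnj2 FPKM was 12.8, 23.2 and 22.7 in the knockout libraries and 1.30, 2.80 and 2.35 in the wild-type libraries. Kcnj8, the pore of an ATP-sensitive channel, had 0.866 to 1.20 FPKM in knockout and 0.757 to 1.98 FPKM in wild type (adjusted p = 0.788). Kcnj10, which encodes Kir4.1, stayed at or below 0.663 FPKM and was not tested.

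The two-pore potassium channels carry background current. Kcnk5, which encodes the pH-sensitive channel TASK-2, had 2.39, 2.29 and 2.72 FPKM in the knockout libraries, against 1.62, 0.949 and 1.22 FPKM in the wild-type libraries (log2 difference 0.62 ± 0.14, SE, limma adjusted p = 0.0978). Kcnk1, which encodes TWIK-1, had 0.383, 0.502 and 0.300 FPKM in the knockout libraries, against 2.38, 0.897 and 1.84 FPKM in the wild-type libraries. Neither gene's groups overlapped. Kcnk1 had a log2 difference of -0.92 ± 0.22 (SE, adjusted p = 0.106), which passed the threshold without BLM2 (-1.15, adjusted p = 0.0442). Its mean over all libraries was 1.05 FPKM. It reached the minimum of 1 only through wild type, at 1.71 FPKM against 0.395 FPKM in knockout. GENCODE M21 places the exon of an antisense gene over Kcnk1. Kcnk6, which encodes TWIK-2, a channel known for potassium efflux in mouse macrophages, had 13.3 to 17.0 FPKM in knockout and 8.92 to 16.3 FPKM in wild type (adjusted p = 0.664). Kcnk13, which encodes THIK-1, the background channel known from microglia, had 6.04 to 7.45 FPKM in knockout and 6.82 to 9.61 FPKM in wild type (adjusted p = 0.511). Both ranges overlapped.

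Summed over the 13 pore-forming potassium channel genes, FPKM was 147, 113 and 125 in the knockout libraries, against 91.2, 96.4 and 63.1 in the wild-type libraries. Kcna3 made up 40.9%, 39.7% and 39.2% of that sum in the knockout libraries, against 19.9%, 25.1% and 21.4% in the wild-type libraries. Its share was near-constant within the knockout group and lower in each wild-type library. Kcnn3 added 30.6%, 26.1% and 31.4% in knockout, and 23.8%, 25.2% and 10.7% in wild type. Without Kcna3 the sum was 68.1 to 86.8 FPKM in knockout and 49.7 to 73.0 FPKM in wild type, and these ranges overlapped. The order of mean levels also differed. Kcna3 ranked 3 of 52 among all ion channel genes in knockout and 6 in wild type, and Kcnj2 ranked 36 in knockout and 21 in wild type. Within wild type, Kcna3 at 18.6 ± 5.36, Kcnn3 at 17.6 ± 9.45 and Kcnk6 at 13.7 ± 4.14 FPKM (SD, n = 3) had overlapping spreads. Kcna3 was nonetheless above Kcnk6 in each wild-type library.

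**Figure D3:**
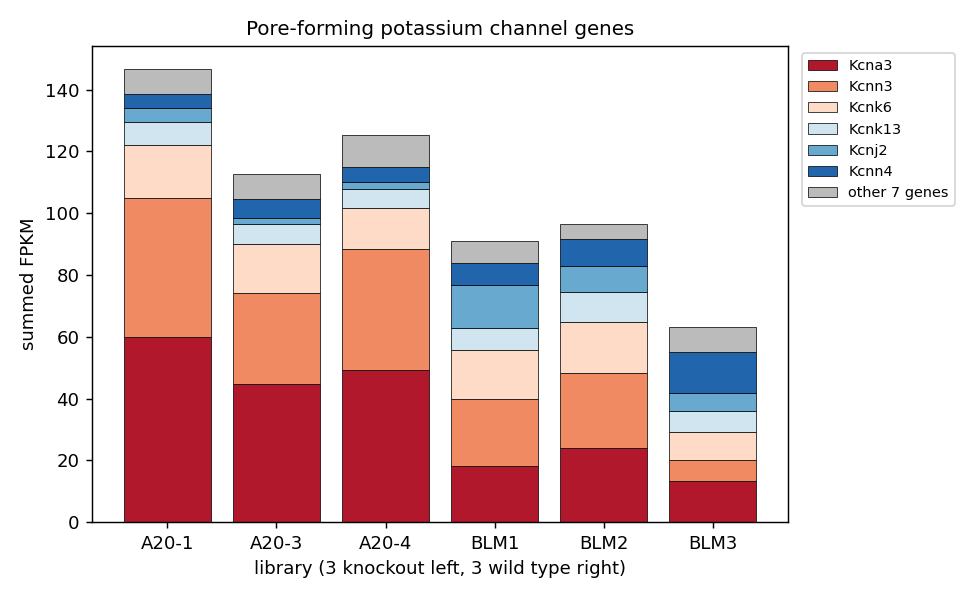
Summed FPKM of the 13 pore-forming potassium channel genes in each library, stacked by gene, with the 3 knockout libraries left of the 3 wild-type libraries. Kcna3 and Kcnn3 together take 65.8% to 71.5% of each knockout bar and 32.1% to 50.3% of each wild-type bar.

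The auxiliary potassium channel subunits gave no call (limma, 0 of 2 tested, 0 at an unadjusted p under 0.05). Kcnab2, a cytoplasmic beta subunit that binds Kv1 channels, had 21.8, 19.5 and 19.7 FPKM in the knockout libraries, against 21.7, 20.4 and 19.99 FPKM in the wild-type libraries. All 6 libraries thus lay close together, with a log2 difference of -0.03 ± 0.10 (SE, adjusted p = 0.901) that was positive after rescaling to TPM (0.0566). Kcne3, a single-span subunit, had 4.58 to 6.44 FPKM in knockout and 1.80 to 4.81 FPKM in wild type (log2 difference 0.65 ± 0.27, SE, adjusted p = 0.252). Kcnip2, a calcium-binding partner of Kv4 channels, had a mean under 1 and was not tested. Its values of 0.156 to 0.545 FPKM in knockout lay below 0.928 to 2.39 FPKM in wild type.

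The 3 genes of voltage-gated calcium channels had negative differences, and 0 of the 3 were called by limma, with 1 at an unadjusted p under 0.05. Cacna1d encodes Cav1.3, the pore of an L-type calcium channel. It had 1.49, 0.903 and 1.08 FPKM in the knockout libraries, against 2.97, 3.16 and 2.43 FPKM in the wild-type libraries. All knockout values were lower than all wild-type values. The log2 difference of -0.84 ± 0.15 (SE) lay just outside the threshold (limma adjusted p = 0.0592), and inside it once BLM3 was left out (-0.92, adjusted p = 0.0318). An exon of Chdh, a gene on the other strand, overlaps it in GENCODE M21. Cacnb3, which encodes a regulatory beta subunit of these channels, had 9.26, 12.1 and 10.1 FPKM in the knockout libraries, against 26.1, 18.5 and 10.9 FPKM in the wild-type libraries. Here BLM3 was within the knockout range, and the log2 difference was -0.69 ± 0.29 (SE, adjusted p = 0.255), or -1.01 without BLM3 (adjusted p = 0.0378). The related subunit gene Cacnb1 had 0.823 to 1.14 FPKM in knockout and 0.916 to 1.44 FPKM in wild type (adjusted p = 0.603).

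The chloride transporters and CLIC proteins held the most abundant members and gave no call (limma, 0 of 8 tested, 1 at an unadjusted p under 0.05). Clic1, a small redox-sensitive protein that can insert into membranes, had the highest level of the family, at 150 to 169 FPKM in knockout and 167 to 193 FPKM in wild type (adjusted p = 0.454). Clic4 followed with 57.9 to 75.8 FPKM in knockout and 34.6 to 60.5 FPKM in wild type (adjusted p = 0.459). Clcn7, the chloride and proton exchanger of lysosomes, had 31.7, 28.2 and 33.5 FPKM in the knockout libraries, against 34.5, 34.4 and 46.1 FPKM in the wild-type libraries. Its groups just failed to overlap, and the difference was small (log2 difference -0.28 ± 0.15, SE, adjusted p = 0.328). The endosomal exchanger genes Clcn3, Clcn4, Clcn5 and Clcn6 had adjusted p of 0.918, 0.412, 0.303 and 0.895. Clcn4 led them with 14.2 to 17.4 FPKM in knockout and 11.5 to 15.4 FPKM in wild type, Clcn3 had 2.73 to 4.04 FPKM in knockout and 2.34 to 4.46 FPKM in wild type, and Clcn6 had 3.03 to 5.59 FPKM in knockout and 2.57 to 5.70 FPKM in wild type. Clcn5 varied most among them within a group on the log2 scale, at 2.48 to 3.43 FPKM in knockout, against 2.54, 0.513 and 2.02 FPKM in the wild-type libraries. Clic5, with 1.04 to 1.21 FPKM in knockout and 1.78 to 1.90 FPKM in wild type, did not overlap (log2 difference -0.43 ± 0.11, SE, adjusted p = 0.109). Clic3 was too low to be tested, at 0.905 to 1.65 FPKM in knockout and 0.533 to 1.06 FPKM in wild type.

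The volume-regulated anion channel is built from LRRC8 proteins, with LRRC8A required in every channel. Lrrc8a had 6.97, 7.14 and 9.17 FPKM in the knockout libraries, against 7.07, 8.68 and 2.75 FPKM in the wild-type libraries, so that BLM3 alone was low (limma adjusted p = 0.556). Lrrc8b had 9.21 to 15.4 FPKM in knockout and 7.85 to 13.5 FPKM in wild type, and Lrrc8c 8.60 to 10.5 FPKM in knockout and 7.70 to 9.86 FPKM in wild type, and both ranges overlapped widely. On the log2 scale, Lrrc8d differed between libraries of one group more than any other member tested did. It had 10.1, 0.921 and 3.62 FPKM in the knockout libraries, against 10.4, 1.03 and 7.22 FPKM in the wild-type libraries, giving a log2 difference of -0.32 ± 0.83 (SE, adjusted p = 0.850). Within each group the lowest and highest Lrrc8d values were about as far apart, and GENCODE M21 places an antisense gene over it.

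Of the anoctamins, Ano6 encodes the calcium-activated phospholipid scramblase TMEM16F. It had 10.7 to 16.1 FPKM in knockout and 7.22 to 12.4 FPKM in wild type (limma adjusted p = 0.415). Ano8 had 4.90, 6.25 and 5.14 FPKM in the knockout libraries, against 3.85, 4.31 and 3.40 FPKM in the wild-type libraries, without overlap (log2 difference 0.40 ± 0.13, SE, adjusted p = 0.164), and shares an exon stretch with Dda1 on the other strand. Ano10 had 2.65 to 3.70 FPKM in knockout and 3.66 to 3.79 FPKM in wild type (adjusted p = 0.540). Ano1, the calcium-activated chloride channel of secretory epithelia and smooth muscle, was too low to be tested, with 0.240 to 0.363 FPKM in knockout and 0.458 to 1.19 FPKM in wild type.

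Among the P2X receptors, the ATP-gated cation channels, P2rx4 was the most abundant. It had 11.3, 10.5 and 11.5 FPKM in the knockout libraries, against 17.2, 14.2 and 13.9 FPKM in the wild-type libraries. Every knockout value was below the wild-type range, at a log2 difference of -0.41 ± 0.11 (limma SE, adjusted p = 0.131). P2rx7, the receptor through which ATP drives potassium efflux and inflammasome activation, had 6.81, 11.1 and 6.09 FPKM in the knockout libraries, against 8.56, 8.17 and 5.45 FPKM in the wild-type libraries, with partly overlapping ranges (log2 difference 0.08 ± 0.25, SE, adjusted p = 0.874). P2rx5 had 6.47 to 7.62 FPKM in knockout and 2.39 to 7.02 FPKM in wild type, where the low value was BLM3 (adjusted p = 0.429).

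The TRP cation channels were led by Trpv2, a channel known in macrophages for roles in phagocytosis. Its FPKM was 46.9, 48.4 and 53.7 in the knockout libraries, against 38.9, 43.3 and 35.95 in the wild-type libraries. The groups did not overlap, with means in a ratio of 1.26 (log2 difference 0.33 ± 0.11, SE, limma adjusted p = 0.184). Trpv4, a channel opened by swelling and stretch, had 2.05, 1.73 and 2.29 FPKM in the knockout libraries, against 4.29, 3.89 and 2.54 FPKM in the wild-type libraries. Its log2 difference of -0.58 ± 0.18 (SE) had an adjusted p of 0.152, or 0.0377 without BLM3 (-0.75). Trpm2, a calcium-permeable channel gated by ADP-ribose under oxidative stress, had 1.95, 1.21 and 1.49 FPKM in knockout, against 1.69, 2.004 and 8.08 FPKM in the wild-type libraries. BLM3 lay 1.67 log2 units above the mean of BLM1 and BLM2, and the log2 difference was -0.73 (adjusted p = 0.403), or -0.17 without BLM3 (adjusted p = 0.563). Trpm7, a channel with a kinase domain, had 8.75 to 9.22 FPKM in knockout and 7.53 to 12.9 FPKM in wild type, and Trpm4, a sodium-permeable channel opened by calcium, 1.70 to 2.03 FPKM in knockout and 1.22 to 2.08 FPKM in wild type. Trpc4ap had 16.2 to 18.1 FPKM in knockout and 14.2 to 16.7 FPKM in wild type (adjusted p = 0.550).

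For store-operated calcium entry, the 3 ORAI pore genes had different patterns and 0 passed the threshold (limma, 0 of the 6 ORAI and IP3 receptor genes at an unadjusted p under 0.05). Orai1 had 14.2, 16.3 and 18.4 FPKM in the knockout libraries, against 11.2, 13.4 and 4.20 FPKM in the wild-type libraries. The groups did not overlap, BLM3 was by far the lowest, and the log2 difference was 0.83 ± 0.37 (SE, adjusted p = 0.271), or 0.38 without BLM3 (adjusted p = 0.176). Orai2 had 9.39, 9.29 and 8.49 FPKM in the knockout libraries, against 11.8, 8.73 and 18.2 FPKM in the wild-type libraries, with BLM3 the highest (adjusted p = 0.369). Orai3 had 8.27, 28.5 and 23.5 FPKM in knockout, against 18.8, 18.9 and 13.0 FPKM in wild type, so that its widest spread was within the knockout group (adjusted p = 0.920). The sum of the 3 was 31.9, 54.1 and 50.4 FPKM in the knockout libraries, against 41.8, 41.0 and 35.5 FPKM in the wild-type libraries. Of the IP3 receptors, which release calcium from the endoplasmic reticulum, Itpr2 had the highest mean level, at 9.19 ± 1.08 FPKM in knockout and 8.33 ± 1.52 FPKM in wild type (SD, n = 3). Itpr1 had 2.48 to 3.97 FPKM in knockout and 2.34 to 3.13 FPKM in wild type. Itpr3 had 4.30 to 4.50 FPKM in knockout, against 6.42, 3.06 and 8.53 FPKM in the wild-type libraries (adjusted p = 0.602).

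BLM3 differed from the other wild-type libraries in many of these genes. It lay more than 0.5 log2 units below the mean of BLM1 and BLM2 for 14 of the 47 members and as far above it for 9, together 48.9% of the members, where 23.6% of all genes tested did so in either direction. The gaps were widest downwards for Kcnn3, Orai1 and Lrrc8a and upwards for Trpm2. This is the library whose neutrophil list summed to 2767 FPKM, and the part of those cells in the gaps was not tested. Without BLM3, 6 members were called (12.8%), 1 higher and 5 lower in knockout, beside 3.84% of all genes tested. They included Kcna3 and, lower in knockout, Cacna1d, Cacnb3, Trpv4 and Kcnj2. Kcna3 had a log2 difference of 1.24 without that library.

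**Figure D4:**
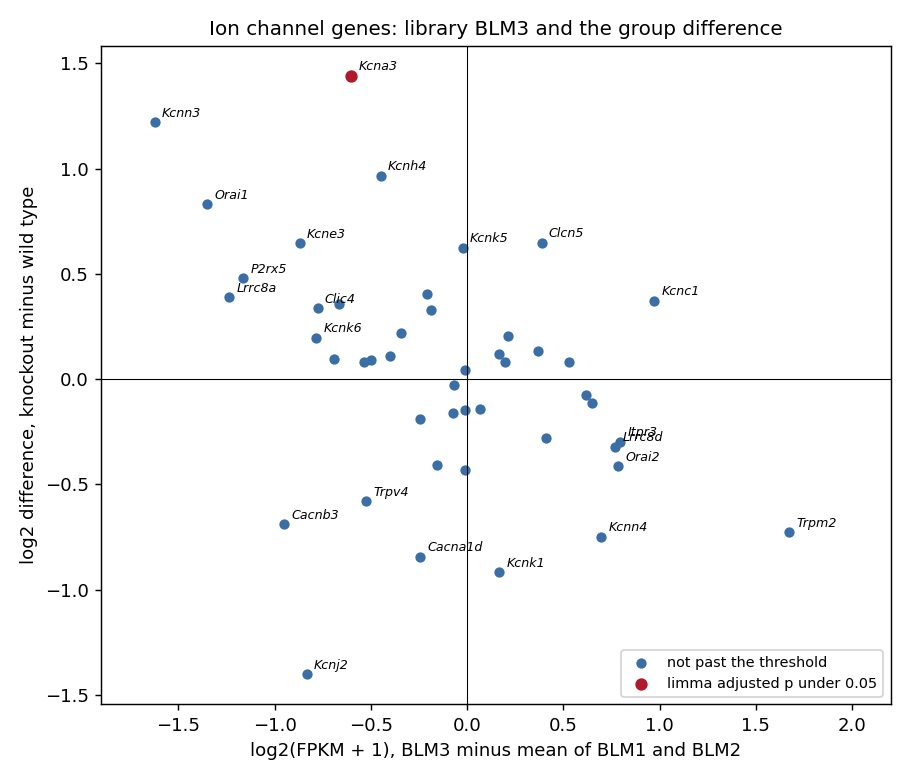
For 46 ion channel genes tested, log2(FPKM + 1) in BLM3 minus the mean of BLM1 and BLM2 (horizontal) against the knockout minus wild-type difference (vertical); both axes contain BLM3. Kcnn3 and Orai1 lie far left, Trpm2 far right at 1.67, and Kcna3 at -0.60.

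Reads of overlapping genes on opposite strands cannot be told apart where strand was not used in counting, which the sources do not state. Besides Kcnk1, Cacna1d, Ano8 and Lrrc8d, this applies to Orai1, Kcne3, Lrrc8a, Clcn4, Cacnb1, Itpr1, Itpr3, Ano6 and Trpc4ap, and their values are uncertain to that extent. Kcna3 has no exon overlap with another gene in GENCODE M21.

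Other genes of ion and calcium handling were read from 3 lists. Of 44 tested genes of calcium handling and of channels and pumps outside the symbol rule, 1 fell and 0 rose (2.27%, beside 1.10% of all genes tested). At an unadjusted limma p under 0.05 stood 15 of the 44, beside 20.3% of all genes tested. The median log2 difference was 0.03. Among those not called, the smallest p belonged to the endolysosomal channel gene Tpcn1, at 2.70 ± 0.434 FPKM in knockout and 5.08 ± 0.670 FPKM in wild type (SD, n = 3 each, limma adjusted p = 0.0718), and Pkd1, which encodes polycystin 1, at 8.33 ± 0.809 FPKM in knockout and 5.20 ± 0.501 FPKM in wild type (adjusted p = 0.0747). Stim1, the endoplasmic reticulum calcium sensor that opens ORAI1, had 4.43 ± 0.656 FPKM in knockout and 2.73 ± 0.364 FPKM in wild type without overlap (log2 difference 0.54 ± 0.14, SE, adjusted p = 0.114). The stretch-gated channel gene Piezo1 had 20.96 ± 2.65 FPKM in knockout and 16.1 ± 1.14 FPKM in wild type (adjusted p = 0.187). Hvcn1, the voltage-gated proton channel of phagocytes, had 135 ± 14.5 FPKM in knockout and 145 ± 40.6 FPKM in wild type (adjusted p = 0.894).

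Of 22 genes in a list of calcineurin, calmodulin and NFAT genes, which also holds phospholipase C genes, 0 were called by limma. At an unadjusted p under 0.05 were 4 of the 22, all 4 higher in knockout, beside 20.3% of all genes tested. The median log2 difference was 0.13, or 0.09 without BLM3. Smallest in p were the phospholipase gene Plcb3, at 16.5 ± 1.30 FPKM in knockout and 11.2 ± 0.910 FPKM in wild type (SD, n = 3 each, adjusted p = 0.0851), the kinase gene Camkk2 (adjusted p = 0.144) and the transcription factor gene Nfatc1, at 18.6 ± 2.03 FPKM in knockout and 14.9 ± 0.669 FPKM in wild type (adjusted p = 0.209). Of 8 genes of the potassium-sensing inflammasome, 1 fell and 0 rose (12.5%, beside 1.10% of all genes tested). It was Pycard, the adaptor ASC, at 13.9 ± 1.11 FPKM in knockout and 23.7 ± 2.31 FPKM in wild type (log2 difference -0.73 ± 0.12, SE, adjusted p = 0.0487). That call ended with either other pseudocount, under TPM, under quantile normalization, without the trend (adjusted p 0.0502 to 0.0531) and without any one library other than BLM3 (0.0873 to 0.196). Il18 and Casp4 had adjusted p of 0.327 and 0.589. Nlrp3, the sensor, had 7.70 ± 1.31 FPKM in knockout, against 5.34, 6.74 and 39.7 FPKM in the wild-type libraries (adjusted p = 0.678).

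The genes whose log2(FPKM + 1) followed that of Kcna3 most closely over the 6 libraries were Maml2, Rnase6, Nr1h3, Adam22 and Cpne5, with Pearson correlations of 0.991 to 0.997. The 6 libraries fall into 2 groups and share those groups, so these values describe likeness of pattern only. Rnase6 had 6.83, 6.19 and 6.75 FPKM in the knockout libraries, against 3.67, 4.40 and 3.17 FPKM in the wild-type libraries. None of the 5 passed the threshold in the group comparison (limma adjusted p 0.0537 to 0.147). Among the ion channel genes, Trpv2, Kcnh4 and Kcnn3 had the highest correlations with Kcna3, at 0.91, 0.90 and 0.89, and Clic5, Kcnk1 and Kcnn4 the lowest, at -0.94, -0.93 and -0.91.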

How the data were processed

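The deposited table holds FPKM per gene for 6 libraries, per the file headers. Coordinates are on GRCm38, as named per the submitters' processing notes. No label or header names the aligner, the quantifier, the annotation or the use of strand (not given in the sources used here). FPKM shows no read depth, so no counting intervals are given. Columns named A20 were taken as knockout and columns named BLM as wild type, because the labels hold only these 2 groups. Column numbers are not tied to replicate numbers. All per-sample columns were used.

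Genes averaging 1 FPKM or more (10696 of 11789) were compared on log2(FPKM + 1), a pseudocount of 1, with limma 3.58.1 in R 4.3.3 (eBayes with trend, two-sided), adjusted by Benjamini-Hochberg over all genes tested, at a threshold of 0.05. Differences are knockout minus wild type and understate changes of low genes. The fit was tested on simulated data. In every listed gene 1 group averages 0.500067 FPKM or more, so others were not analysed here.

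The members, lists and tests were chosen with earlier results of these data known. Named are Tnfaip3, Kcna3, each member called, the 3 smallest p and 2 highest means per role group, the 3 smallest p per related list, and Stim1, Piezo1, Hvcn1 and Nlrp3. Other members are given by their values. Some genes counted here, 1 member among them, are not reported here by name or value. All 52 gene IDs were found in GENCODE M21, 50 with the same coordinates. Exons of 16 members overlap another gene, 13 of them on the other strand, and such values are uncertain. Promoter sequence is from RefSeq (GRCm38.p6). Marker lists had these calls and medians in limma. NK and cytotoxic genes had 0 of 8 called (1 at an unadjusted p under 0.05) and 0.23, or 0.51 without BLM3, where 1 was called higher. Dendritic cell genes had 0 of 8 (4, of which 2 higher and 2 lower) and -0.36. Lung epithelial genes had 0 of 9 (5, of which 3 higher and 2 lower) and 0.57. Fibroblast and endothelial genes had 0 of 2 (1) and -0.50. Erythroid genes had 0 of 5 (0) and 0.04. Neutrophil genes had 0 of 6 (1) and -1.55, and Ly6g was at 0 in 4 libraries. B cell genes had a median of -0.98 and recruited macrophage genes of -1.46.

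Alternatives were pseudocounts of 0.1 and 5, no minimum or a minimum of 5, TPM, quantile normalization, array weights, no trend, and leaving out each library.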

Additional observations from a re-analysis of the deposited data

How the results depend on the processing

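No paired analysis was possible because the table's columns carry no replicate number of the sample titles. Over all genes, 27 were called higher and 91 lower in knockout. These became 17 and 58 with a minimum of 5 FPKM and 942 and 992 with array weights, which weigh libraries unequally. Under TPM 41 were higher and 64 lower, or 39.0% higher against 22.9% as deposited. Leaving out 1 library gave 0 to 144 higher and 0 to 267 lower, with 0 and 0 without A20-3 (1694 at an unadjusted limma p under 0.05) and the most without BLM3. Members called higher were 0 under quantile normalization (14 members at an unadjusted limma p under 0.05, either direction), 6 with array weights and 0 to 1 without a library, and those called lower 8 with array weights and 0 to 5 without a library (0 and 0 without A20-3, with 13 members at an unadjusted limma p under 0.05). The 14 members called with array weights are 29.8%, beside 18.1% of all genes. In the 3 related lists 0 were higher and 2 lower, or 8 and 10 with array weights. The count of lower genes there was 1 under either other pseudocount, TPM, quantile normalization or no trend, and 0 to 2 without a library. Kcna3 had 1.45 under quantile normalization (not called), and 1.24 to 1.64 without a library.

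Some differences that were not called changed sign. With array weights the log2 difference was -0.20 for Clcn3, -0.10 for Clcn6, 0.00717 for Kcnj8, -0.0473 for Kcnk6, -0.13 for Lrrc8b, -0.0102 for Orai3, -0.14 for P2rx7, -0.0544 for Trpm4, 0.18 for Trpm7, 0.0395 for Casp4 and 0.31 for Nlrp3. Under TPM it was 0.0566 for Kcnab2, 0.00147 for Trpm7 and 0.0194 for Hvcn1, which had 0.0024 under quantile normalization. Without a library the ranges were -0.14 to 1.27 for Tnfaip3, -0.13 to 0.22 for Clcn3, -0.19 to 0.31 for Clcn6, -0.0736 to 0.00819 for Kcnab2, -0.28 to 0.10 for Kcnj8, -0.0647 to 0.34 for Kcnk6, -0.0225 to 0.66 for Lrrc8a, -0.13 to 0.27 for Lrrc8b, -0.0118 to 0.15 for Lrrc8c, -1.07 to 0.31 for Lrrc8d, -0.23 to 0.60 for Orai3, -0.15 to 0.23 for P2rx7, -0.0216 to 0.21 for Trpm4, -0.22 to 0.13 for Trpm7, -0.56 to 0.0593 for Casp4, -0.32 to 0.0812 for Hvcn1 and -1.04 to 0.30 for Nlrp3. The cause of these changes was not tested. Fits that leave out a library rest on fewer samples, which raises p even at an equal difference. The read depth is unknown, so precision at low FPKM cannot be given.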
